A study of Mus musculus with 6 samples.

Results

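The annexins measured here are the 10 genes *Anxa1*, *Anxa2*, *Anxa3*, *Anxa4*, *Anxa5*, *Anxa6*, *Anxa7*, *Anxa10*, *Anxa11* and *Anxa13*, each with 1 probe among the 33012 probes of the array, so the family is 10 of the 13840 genes that a probe names alone. They were taken by gene symbol from the platform annotation. The family was selected on the normalized signal of *Anxa13*, which was lower in the *Id2*-/- midgut of these same samples, so its genotype difference is given below as a description without a test, and no difference of its relatives is offered as independent support. RNA came from the distal part of the midgut at E13.5, from 3 wild-type samples (*Id2*+/+, labelled Id2 WT) and 3 samples lacking the helix-loop-helix inhibitor gene *Id2* (*Id2*-/-, labelled Id2 KO). The labels call the embryos of both genotypes littermates, without saying which samples share a litter. Each sample was hybridized to 1 single-color Applied Biosystems mouse genome survey array. The knockout is present in all cells of the embryo. The methods name both an inbred and a mixed strain background for the mutants, and neither they nor the labels say which was used for the arrays or whether a sample is a single embryo. Signals of *Id2* itself were not analysed here, and the genotype of each sample is that of its label. As separate embryos are not stated, each p-value reflects how far these samples spread, which may be technical.

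Annexins are proteins that bind phospholipid membranes when calcium is present. They share a conserved core of repeats that carries the calcium sites, whereas the N-terminal tail differs from member to member and sets the binding partners. In epithelia they take part in vesicle traffic, in linking membrane to the cytoskeleton and in membrane repair. *Anxa13* is the member most closely tied to the intestine: its product is made by intestinal and kidney epithelial cells, and a lipid-anchored form of it serves transport to the apical membrane. *Anxa4* is also prominent in epithelial cells, and *Anxa10* is known from the gastric mucosa. *Anxa1*, *Anxa2*, *Anxa5*, *Anxa6*, *Anxa7* and *Anxa11* are made by many cell types.

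Signals are given as median-normalized signal, which is the scanner signal divided by the median of the array, and differences are log2 values for *Id2*-/- minus *Id2*+/+. A probe counts as above background on an array where the signal-to-noise value of the scanner software is at least 3. Signals of different probes are not on a common scale and are not ranked against each other. Of the 10 members, 8 were above background on all 6 arrays, with a lowest signal-to-noise value of 4.17, and were tested together with all 12741 probes that were above background on the 3 arrays of at least one genotype. *Anxa10* and *Anxa11* were not tested. Arrays carry the numbers 1 to 3 in each genotype. In both genotypes the array numbered 1 was unlike the other arrays over the tested probes, and the arrays numbered 1 shifted alike around the mean of their genotype. Those numbered 2 and 3 shifted alike across numbers as well as within them, so the signals do not tell 2 from 3. Each difference is also given within same-numbered pairs, where pairs 2 and 3 rest on the labels. In the pairs numbered 1, 2 and 3 the tested probes as a whole had median differences of 0.35, -0.04 and -0.19, and pair values were not corrected for it. The labels do not say what same-numbered samples share. Of the markers of the labelled tissue, *Cdx2*, the homeobox gene of the intestine, and *Epcam*, which encodes an epithelial adhesion molecule, were above background on all 6 arrays, although *Cdx1* was so on none.

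The promoter sequences of *Anxa4*, the relative with the largest mean difference after *Anxa13*, and of *Anxa2*, the relative with separate genotypes, are shown for reference. Id proteins bind the E proteins, which recognize the E-box CANNTG, and its matches are in capitals. The windows are from RefSeq (GRCm38.p6), run 5′ to 3′ on the strand of the gene and hold 250 bases before and 50 after an annotated start. *Anxa4* has a pair of annotated starts, at chr6:86793535-86793834 (minus strand) and chr6:86775065-86775364 (minus strand), and *Anxa2* a single window at chr9:69453433-69453732 (plus strand).
Anxa4, upstream start: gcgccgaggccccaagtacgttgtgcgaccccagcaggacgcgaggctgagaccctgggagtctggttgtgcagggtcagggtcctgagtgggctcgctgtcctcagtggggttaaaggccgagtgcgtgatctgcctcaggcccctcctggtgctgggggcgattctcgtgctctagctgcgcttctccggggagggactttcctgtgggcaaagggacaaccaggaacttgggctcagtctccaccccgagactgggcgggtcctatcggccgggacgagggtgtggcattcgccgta
Anxa4, downstream start: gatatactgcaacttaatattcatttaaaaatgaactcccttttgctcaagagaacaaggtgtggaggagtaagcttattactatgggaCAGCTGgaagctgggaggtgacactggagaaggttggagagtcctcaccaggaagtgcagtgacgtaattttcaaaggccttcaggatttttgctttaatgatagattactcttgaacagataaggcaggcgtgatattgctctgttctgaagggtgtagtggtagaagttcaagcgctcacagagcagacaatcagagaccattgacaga
Anxa2: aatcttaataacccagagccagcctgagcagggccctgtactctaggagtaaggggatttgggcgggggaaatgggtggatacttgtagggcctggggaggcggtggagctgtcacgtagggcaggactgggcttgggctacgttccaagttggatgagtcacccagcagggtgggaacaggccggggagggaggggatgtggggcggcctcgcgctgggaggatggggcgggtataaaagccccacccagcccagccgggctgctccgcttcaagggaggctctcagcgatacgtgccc
The downstream window of *Anxa4* held 1 E-box, CAGCTG, and its other window and that of *Anxa2* held 0. Over the 9 windows found for 7 members, 7 held at least 1 E-box, and *Anxa7* had the most, with 5 and 2 in its overlapping windows. CANNTG reads the same on both strands and occurred in 72.3% of all 32851 promoter windows. The letters TTTATG, a core motif of Cdx factors searched on both strands, occurred in 0 of the 9 windows and in 11.9% of all windows. *Anxa3*, *Anxa6* and *Anxa13* have no entry in the table. These matches describe the letters of the windows and were not set against the signals.

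*Anxa13* had the lower signal on the *Id2*-/- array of each same-numbered pair. Its normalized signal was 4.97, 26.0 and 43.5 on the *Id2*+/+ arrays numbered 1, 2 and 3 and 1.95, 4.47 and 7.73 on the *Id2*-/- arrays. It was well above background everywhere, with signal-to-noise values from 10.1 to 71.8. The genotypes overlapped, because the *Id2*+/+ array numbered 1 was below the *Id2*-/- array numbered 3. Within each genotype the array numbered 1 was the lowest and the array numbered 3 the highest. The log2 signal averaged 4.15 ± 1.64 (SD, n = 3) for *Id2*+/+ and 2.03 ± 1.0 (SD, n = 3) for *Id2*-/-, a difference of -2.13, which corresponds to a 4.37-fold lower mean. The signal was 2.55-fold lower in the pair numbered 1, 5.82-fold in pair 2 and 5.62-fold in pair 3. The difference was the 8th lowest among all 12741 tested probes. A mean at least 2-fold lower was seen for 0.856% of tested probes, and a signal at least 2-fold lower in each of the 3 pairs for 0.196%. A mean at least 2-fold higher, seen for 0.699%, was found for 0 annexins. *Anxa13* was the single annexin in either group, which follows from its choice.

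**Figure D1:**
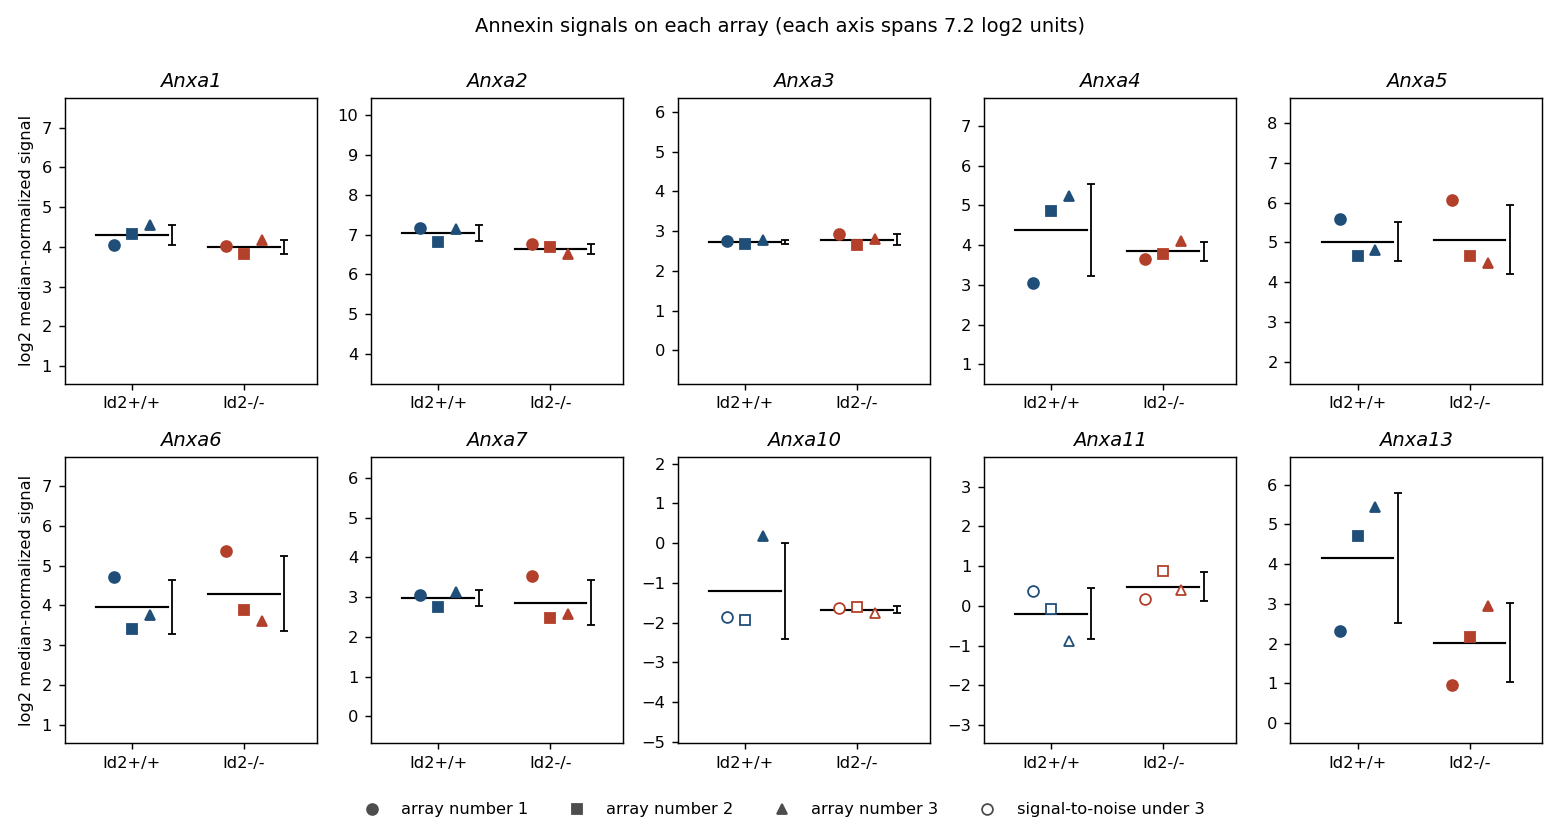
Log2 median-normalized signal (vertical axis) of the 10 annexins on the 3 *Id2*+/+ and 3 *Id2*-/- arrays, where the marker shape gives the array number, the horizontal bar the mean and the vertical line the SD, with open points where the signal-to-noise value is under 3. The means of *Anxa13* are 4.15 and 2.03, the points of *Anxa2* do not overlap between genotypes, and 11 of the 12 points of *Anxa10* and *Anxa11* are open.

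The other 7 tested annexins lay much closer together between the genotypes. Their differences ran from -0.54 for *Anxa4* to 0.33 for *Anxa6*, 4 negative and 3 positive, with a median of -0.12 against 0.04 over all tested probes, of which 39.6% were negative. In limma without a block, 0 of these 7 relatives and 0 of 12741 probes (0%) passed an adjusted p of 0.05, against 0 of the 7 and 234 probes (1.84%) at an unadjusted p under 0.05. The smallest unadjusted p among the relatives was 0.133, for *Anxa2*, and their adjusted p-values were 1.0. With the array number as a block, 0 of the 7 were called lower, where 1.12% of tested probes were, and 0 were called higher, where 1.06% were. The smallest adjusted p with the block was 0.71, for *Anxa4*, the 1 relative at an unadjusted p under 0.05, as were 6.9% of tested probes. In either direction the block called 2.18% of all probes. This block fit gave every tested probe the same standard error, 0.27. Its calls and p-values therefore follow the size of the difference and not the spread of each probe. The block calls were lost for all probes once quantile normalization or centring of the arrays on the median of the tested probes was added, with 0 probes called in either fit and 940 and 930 probes at an unadjusted p under 0.05. A p above the threshold does not show that a gene did not differ, and 3 arrays a genotype limit the precision.

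*Anxa4*, whose protein is found at epithelial membranes, was the relative that varied most among the wild-type arrays. Its normalized signal was 8.31, 29.1 and 37.3 on the *Id2*+/+ arrays numbered 1, 2 and 3 and 12.4, 13.8 and 17.0 on the *Id2*-/- arrays. The *Id2*+/+ array numbered 1 was the lowest of all 6 and the other *Id2*+/+ arrays were the highest, so the genotypes overlapped. The log2 differences were 0.58, -1.08 and -1.13 in the pairs numbered 1, 2 and 3. *Anxa4* was therefore lower, as *Anxa13* was, in pairs 2 and 3, and in the opposite direction in pair 1. Its mean difference of -0.54 (standard error 0.55 in limma without a block) was -1.21 without the *Id2*+/+ array numbered 1, -0.30 without the one numbered 2 and -0.12 without the one numbered 3.

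*Anxa2*, which encodes the partner of S100a10 in a complex beneath the plasma membrane, was the relative with separate genotypes. Its normalized signal was 145, 113 and 142 on the *Id2*+/+ arrays and 108, 103 and 90.7 on the *Id2*-/- arrays. Each *Id2*+/+ array was above each *Id2*-/- array, a pattern shared by 1.29% of tested probes, and the reverse, seen for 2.73%, was found for 0 annexins. Its difference of means was -0.40 with a standard error of 0.24, and the pairs gave -0.43, -0.13 and -0.64. *Anxa1*, whose product signals through formyl peptide receptors in the control of inflammation, had a normalized signal of 16.5, 20.0 and 23.3 on the *Id2*+/+ arrays and 16.2, 14.1 and 18.05 on the *Id2*-/- arrays. These groups overlapped, and the pair differences were -0.02, -0.50 and -0.37. The mean difference of *Anxa1* was -0.30 (standard error 0.25), and -0.18 without the *Id2*+/+ array numbered 3. *Anxa1* and *Anxa2* were the relatives with a lower signal in all 3 pairs, as were 5.64% of tested probes.

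*Anxa5* and *Anxa6* differed more by array number than by genotype, with log2 means 1.17 and 1.38 higher on the arrays numbered 1 and genotype differences of 0.06 and 0.33. Without the *Id2*-/- array numbered 1 these differences were -0.44 and -0.21, and without the *Id2*+/+ array numbered 1 they were 0.34 and 0.71. *Anxa5* encodes the phosphatidylserine-binding protein used to stain dying cells. Its normalized signal was 47.9 and 66.9 on the *Id2*+/+ and *Id2*-/- arrays numbered 1, and 22.3 to 27.9 on the other 4 arrays. *Anxa6*, the member with a duplicated core, which takes part in membrane and lipid traffic, was at 26.4 and 41.5 on the arrays numbered 1 and at 10.6 to 14.9 on the others. Both genes were higher on both arrays numbered 1 than on the other 4, as were 27.6% of all tested probes. *Anxa4* was lower on both than on the other 4, as were 31.1%, so these patterns are common on this set of arrays. *Anxa13* did not meet that condition, because the *Id2*-/- array numbered 2 was below the *Id2*+/+ array numbered 1.

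*Anxa3* and *Anxa7* had mean differences of 0.05 and -0.12 (standard errors 0.22 and 0.34 in limma without a block). *Anxa3* spanned 6.22 to 7.59 over all 6 arrays, the narrowest range of the 8 on the log2 scale, with pair differences of 0.18, -0.04 and 0.02. *Anxa7*, which encodes synexin, a protein that aggregates secretory granules, was at 8.36, 6.75 and 8.71 on the *Id2*+/+ arrays and 11.52, 5.58 and 6.01 on the *Id2*-/- arrays. Its pair differences of 0.46, -0.28 and -0.53 ran with those of all probes. Without the *Id2*-/- array numbered 1 the mean difference of *Anxa7* was -0.45. Over the 7 relatives the median pair differences were 0.46, -0.13 and -0.37, in the same order as the medians of all tested probes.

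*Anxa10*, the annexin of gastric mucosa, was above background on 1 array, the *Id2*+/+ array numbered 3, with a normalized signal of 1.14 and a signal-to-noise value of 3.18. It was at 0.261 to 0.326 on the other 5. *Anxa11*, whose product has a long N-terminal tail and binds the calcium sensor encoded by *Pdcd6*, was above background on 0 arrays, with signals from 0.542 to 1.84. No fold is given for either. The array also has probes for *Anxa8* and *Anxa9*, which are not among the 10 members. *Anxa8* was above background on 0 arrays and *Anxa9* on both arrays numbered 1, with signals of 0.992 and 1.23.

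**Figure D2:**
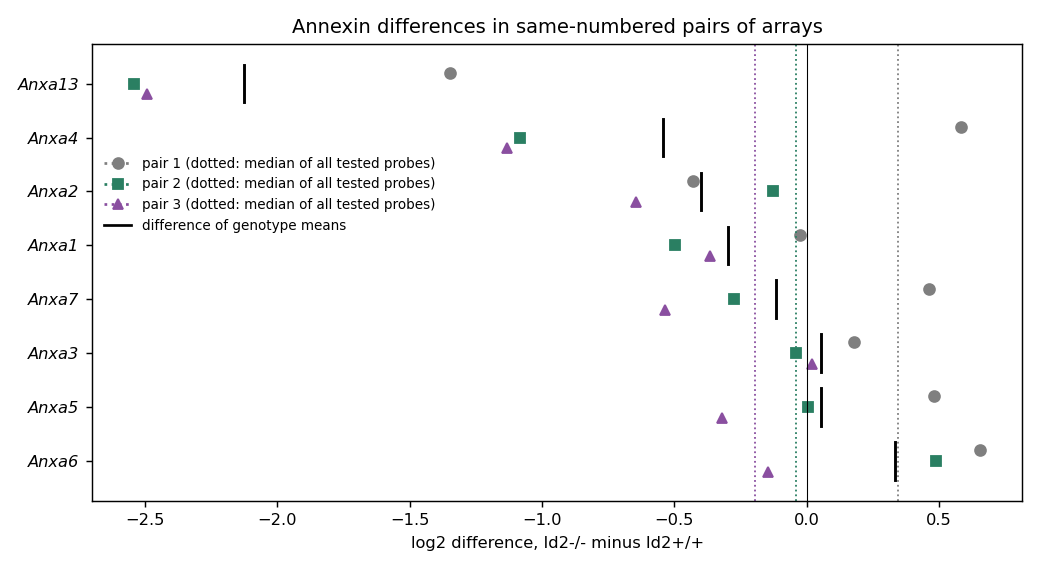
Log2 difference of *Id2*-/- minus *Id2*+/+ (horizontal axis) for the 8 tested annexins in the pairs of arrays numbered 1, 2 and 3, with vertical black bars for the difference of genotype means and dotted lines for the median of all tested probes in each pair. The points of *Anxa13* lie at -1.35, -2.54 and -2.49, and those of *Anxa4* on both sides of 0, at 0.58, -1.08 and -1.13.

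Within the same array, where a factor common to all probes cancels, *Anxa13* was lower relative to its family in each *Id2*-/- sample than in the same-numbered *Id2*+/+ sample. Against the mean of the 7 relatives, its log2 level relative to them was -2.03, 0.49 and 0.96 on the *Id2*+/+ arrays and -3.65, -1.84 and -1.08 on the *Id2*-/- arrays. The genotypes overlapped, and the pair differences were -1.62, -2.32 and -2.05, with a difference of means of -1.997. That value was -1.27 without the *Id2*-/- array numbered 1. Relative to *Anxa4* the groups separated, and relative to each of the other relatives taken singly they overlapped. The *Anxa13* minus *Anxa4* value was -0.74, -0.16 and 0.22 on the *Id2*+/+ arrays and -2.67, -1.62 and -1.14 on the *Id2*-/- arrays, with pair differences of -1.93, -1.46 and -1.36. Set against *Anxa4* in this way, 0.275% of all tested probes separated in that direction, and 0.667% were lower in all 3 pairs. The gap between *Anxa13* and the relative nearest to it in mean difference, *Anxa4*, was 1.58 on the log2 scale. As the contrast chose *Anxa13*, these values carry no test.

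Levels of other epithelial genes also varied over the arrays. In whole tissue, fewer cells of a type and less RNA per cell cannot be told apart. Of 18 pan-epithelial genes, 16 were measured, all of them above background on all 6 arrays. Their median difference was -0.29, with 15 of 16 negative against 39.6% of all tested probes, and it was 0.46, -0.48 and -0.82 in the pairs numbered 1, 2 and 3. Limma called 0 of the 16 without the block, with 0 at an unadjusted p under 0.05, and 1 lower with it (1.12% of all tested probes), *Tjp3*, a tight junction scaffold gene at -1.09, and the largest positive difference was 0.18 for *Esrp2*, a splicing factor gene. The summed normalized signal of the 16 was 588 to 1586 on the *Id2*+/+ arrays and 822 to 941 on the *Id2*-/- arrays, with the *Id2*+/+ array numbered 1 the lowest of all. The sign pattern over the pairs was that of *Anxa4* and not that of *Anxa13*. It was also the sign pattern of the medians of all tested probes, 0.35, -0.04 and -0.19, so it is not particular to epithelial genes. Relative to the mean of the 16 genes, *Anxa13* stood at -1.99, -0.60 and -0.15 on the *Id2*+/+ arrays and at -3.74, -2.58 and -1.91 on the *Id2*-/- arrays, so the difference was -1.75, -1.98 and -1.75 in the pairs and -1.83 between the means. The lowest *Id2*+/+ and the highest *Id2*-/- array overlapped by 0.08. For *Anxa4* the same relative difference was 0.18, -0.52 and -0.39 in the pairs.

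Set against single epithelial genes, the difference of *Anxa13* ranged from -1.85 relative to *Epcam* to -0.09 relative to *Muc13*. Relative to *Cdh1*, which encodes E-cadherin, *Anxa13* was at -2.34, -2.37 and -1.78 on the *Id2*+/+ arrays and -4.58, -4.00 and -3.32 on the *Id2*-/- arrays. The groups were separate by 0.95, and 0.471% of all tested probes separated in this direction against *Cdh1*. *Cdh1* itself differed by 0.89, -0.92 and -0.95 in the pairs. Against *Epcam*, *Anxa13* differed by -2.10, -1.82 and -1.62 in the pairs with separate groups, as for 0.596% of tested probes, and against *Cdx2* by -1.87, -1.90 and -1.41 with overlapping groups. Relative to *Muc13*, which encodes a transmembrane mucin of the intestinal surface, its level was 0.73, 0.76 and 1.04 on the *Id2*+/+ arrays and 0.85, 0.65 and 0.74 on the *Id2*-/- arrays, with a difference of -0.09. These groups overlapped. *Fabp1*, the gene of the liver-type carrier of fatty acids, left a relative difference of -0.27, -0.78 and -0.51 in the pairs, and the groups overlapped. *Cdh1* and *Epcam*, like *Anxa4*, had their lowest signal on the *Id2*+/+ array numbered 1. Subtracting them therefore raised *Anxa13* there relative to the other arrays. As the contrast chose *Anxa13*, the separations and shares in this paragraph carry no test.

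**Figure D3:**
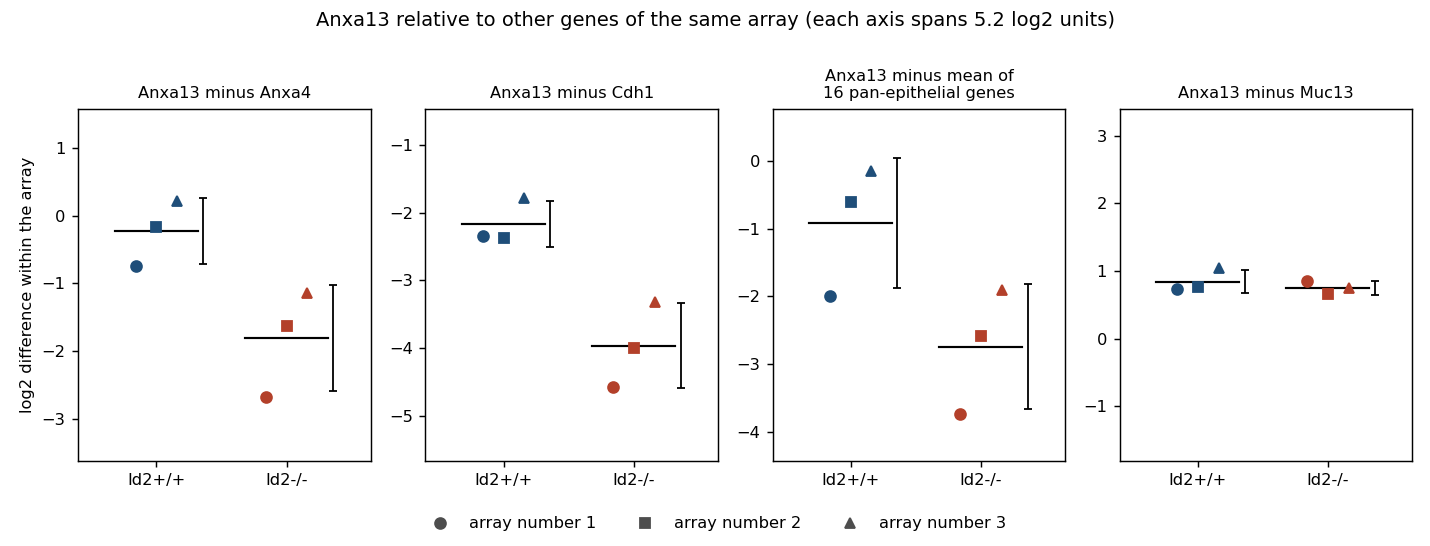
Log2 level of *Anxa13* minus that of *Anxa4*, of *Cdh1*, of the mean of 16 pan-epithelial genes and of *Muc13* on the same array (vertical axes), for the 3 *Id2*+/+ and 3 *Id2*-/- arrays, where the marker shape gives the array number, the bar the mean and the vertical line the SD. The groups are separate in the first 2 panels, overlap by 0.08 in the third and differ by -0.09 in the means of the last.

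Of 20 genes listed for the intestinal epithelium, 13 were measured, with a median difference of -0.54 and medians of 0.02, -0.92 and -0.96 in the pairs. The summed normalized signal of the 13 was 171 to 648 on the *Id2*+/+ arrays and 225 to 361 on the *Id2*-/- arrays. Limma called 0 of them without the block, with 4 at an unadjusted p under 0.05 (1.84% of all tested probes), and 4 lower (1.12% of all) and 1 higher (1.06% of all) with it. The lowest difference was that of *Sult1d1*, a sulfotransferase gene, at -2.31, and the highest that of *Anpep*, the aminopeptidase N gene of the brush border, at 1.46. The genes called lower were *Sult1d1*, *Spink1*, *Muc13* and *Fabp1*. The study picked out these genes, *Spink1* under its older name *Spink3*, on these same samples, so the list is not independent evidence of direction. It also reports, from qRT-PCR of *Id2*-/- intestine at the same stage, that these genes and *Anxa13* were markedly decreased. Those qRT-PCR measurements were not part of the data analysed here, and whether they used the same RNA is not stated. Relative to the mean of the 13 genes, *Anxa13* differed by -1.17, -1.55 and -1.37 in the pairs, and the groups were separate by 0.04, as for 0.173% of tested probes. That share carries no test either, because the contrast chose *Anxa13*. Markers of other cell types are given by their medians. The 6 endothelial genes had a median difference of 0.40, the 6 fibroblast genes -0.09, the 6 smooth muscle genes 0.16, the 3 mesothelial genes 0.06, the 4 neural crest genes 0.07, the 5 macrophage genes -0.13 and the 4 erythroid genes 0.38, and limma called 0 genes in each of these lists with and without the block, with 0 at an unadjusted p under 0.05 without it. The pair medians were 1.18, 0.30 and -0.13 for the endothelial genes, 0.16, -0.11 and -0.22 for fibroblast, 0.85, -0.05 and -0.50 for smooth muscle and -0.66, 0.31 and 0.63 for mesothelial genes. For the neural crest they were 0.36, 0.03 and -0.09, for macrophages -0.19, 0.07 and -0.32 and for erythroid genes 0.75, 0.16 and 0.14, so the sign changed between pairs in each list but the erythroid one. The medians of all tested probes changed sign between pairs as well, and these pair values were not corrected for it. Where a list held both signs, the lowest and highest differences were -0.42 for *Lum* and 0.39 for *Pdgfra* among fibroblast genes, -0.15 for *Tagln* and 0.29 for *Smtn* in smooth muscle, and -0.14 for *Podxl* and 0.16 for *Wt1* in mesothelium. They were -0.02 for *Ret* and 0.31 for *Ednrb* in the neural crest and -0.33 for *Fcgr3* and 0.05 for *Lyz2* in macrophages. Endothelial differences ran from 0.25 for *Eng* to 0.70 for *Pecam1*, and erythroid ones from 0.02 for *Hba-a1* to 0.72 for *Hbb-bh1*. Of the 13 genes of squamous and gastric epithelium, 2 were measured, and limma called 0 of them with and without the block. *Krt14* was at 0.14 (-0.54, 0.54 and 0.43 in the pairs) and *Sox2* at 0.58 (0.61, 0.37 and 0.76). Of the others, *Tff2*, *Gkn1* and *Gkn2* were each above background on 2 *Id2*+/+ arrays and 1 *Id2*-/- array. *Krt15* was so on 1 and 2, *Sox21* on 0 and 2, *Krt5* on 0 and 1, and *Trp63*, *Krt4* and *Krt13* on 0 arrays. The part of any of these cell types in the annexin signals was not tested.

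The gene whose profile over the 6 arrays was closest to that of *Anxa13* was *Muc13*. The distance used is the root mean square difference of log2 signals after each gene's own mean is subtracted, over 7321 other named genes. It was 0.12 for *Muc13*, 0.34 for *Fos*, an immediate early transcription factor gene, 0.35 for *Cpne8*, which encodes a copine, another calcium-dependent membrane-binding protein, 0.42 for *Cyp3a13*, a cytochrome P450 gene, and 0.54 for *Foxq1*, a forkhead factor gene. Signals of *Fos* and *Foxq1* were above background on 5 of the 6 arrays. *Cpne8* had log2 signals of 2.46, 4.93 and 4.94 on the *Id2*+/+ arrays and 1.62, 2.22 and 2.77 on the *Id2*-/- arrays, with pair differences of -0.84, -2.71 and -2.17. *Muc13* had pair differences of -1.47, -2.44 and -2.19, so that *Anxa13* minus *Muc13* differed by 0.12, -0.10 and -0.30 in the pairs. Among the annexins *Anxa4* came closest, at a distance of 0.95 and rank 89, followed by *Anxa1* at 1.34 and rank 1269. *Anxa6* was the farthest, at 2.11 and rank 6751. The likeness includes the shift of the arrays numbered 1, which many probes share. It also includes the genotype difference for which *Anxa13* was chosen, so the distance favours genes with a similar fall. The closeness of *Muc13* is therefore a description and no separate support.

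**Figure D4:**
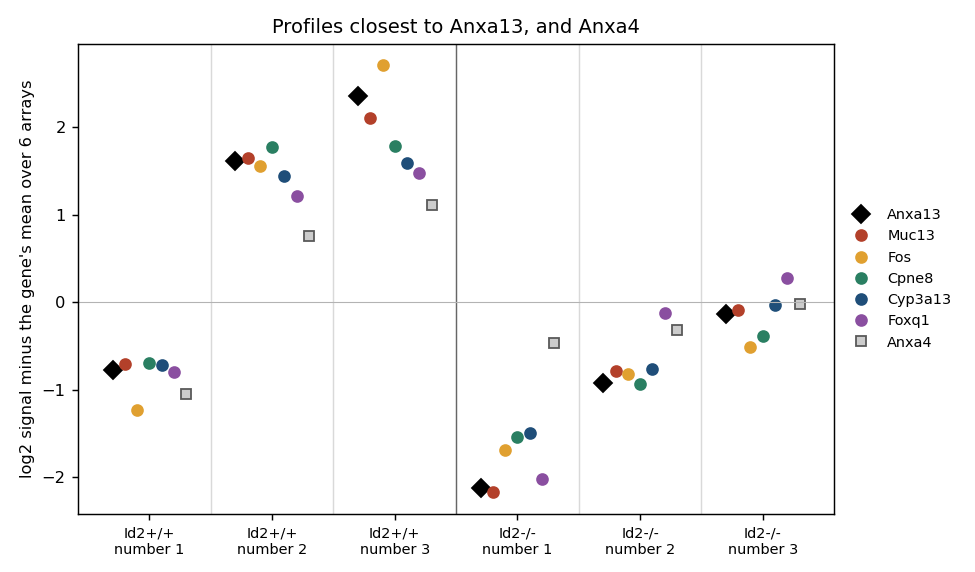
Log2 signal minus the gene's mean over the 6 arrays (vertical axis) of *Anxa13*, the 5 genes closest to it and *Anxa4*, on each array (horizontal axis), with 1 point per gene and array. The points of *Muc13* lie nearest to those of *Anxa13* (distance 0.12). Those of *Anxa4* lie nearer to 0 than those of *Anxa13* on every array but the *Id2*+/+ array numbered 1.

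Proteins that bind annexins or act with them were looked at as a list of 16 genes, of which 13 had a probe and 8 were measured. Their median difference was -0.08, with 4 negative and 4 positive. Limma called 0 of the 8 without the block, where 0% of all probes were called. In that fit 1 of the 8 had an unadjusted p under 0.05, as had 1.84% of all tested probes. With the block limma called 1 lower, where 1.12% of tested probes were. The gene was *S100a6*, whose product is a small calcium-binding protein that binds *Anxa2* and *Anxa11* proteins. It differed by -1.05, with -0.61, -1.22 and -1.34 in the pairs (adjusted p = 0.00891 in limma with the block, 0.219 with the block and quantile normalization, and 1.0 without the block). *S100a10*, the partner of *Anxa2*, differed by -0.05, -0.63 and -0.98 in the pairs, and *S100a11*, a partner of *Anxa1*, by 0.05, -0.13 and -0.54. Neither passed. For *S100a6* and *S100a10* each *Id2*+/+ array was above each *Id2*-/- array, as for 1.29% of tested probes. The other measured partners did not show this. The largest positive difference was 0.22, for *Nedd4*, a ubiquitin ligase gene whose product binds a form of annexin A13. *Pdcd6*, untested, reached the background threshold on 2 *Id2*+/+ arrays and on 0 *Id2*-/- arrays. Its signal-to-noise value on the *Id2*-/- arrays was up to 2.9, and its normalized signals overlapped between genotypes. *Plg*, the plasminogen gene, was above background on 0 arrays.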

How the data were processed

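RNA of 3 *Id2*+/+ and 3 *Id2*-/- midgut samples was measured on 1 array each. The authors deposited scanner signal intensity divided by the median of the array (array medians 708 to 1010), with a signal-to-noise score and a quality flag score per probe. Flags of 5000 or more were taken as bad, although the wording of the methods can be read the other way. Gene symbols came from the platform annotation: 14411 probes have 1 symbol, 247 several and 18354 none.

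The deposited intensity was put on the log2 scale and tested with limma 3.58.1 in R 4.3.3 (Benjamini-Hochberg over 12741 probes, no block). Figures used matplotlib 3.10.9. The script was tested on simulated data without a shift shared by same-numbered arrays, so that test does not bear on how the block handles such a shift. Deviations from the genotype means correlated at 0.84, 0.64 and 0.58 for arrays of the same number, so the number was taken to pair the arrays. It was also fitted as a block. Arrays 2 and 3 correlated across numbers too (0.64 and 0.55). The 0.64, of the *Id2*+/+ array numbered 2 with the *Id2*-/- array numbered 3, exceeds the 0.58 within number 3. These values set number 1 apart but do not tell 2 from 3. Alternatives were quantile normalization, other filters, an offset, another prior and leaving out each array. Centring and the comparison with epithelial genes were chosen after seeing the data.

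The members and gene lists were chosen with earlier results of these data known. Named were all annexins, the tested gene with the lowest and the highest difference in each list, 5 epithelial references and the 5 genes closest to *Anxa13*. Promoters were read from a RefSeq table.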

Additional observations from a re-analysis of the deposited data

How the results depend on the processing

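With the array number as a replicate block, the number of annexin probes called was 1 in place of 0. That probe is *Anxa13*, whose contrast chose the family, so nothing is read from it, and 0 of the 7 relatives were called. The number of annexin partner genes called was 1 (*S100a6*) in place of 0. Both counts were 0 when quantile normalization or centring was added to the block. The block alone gave every tested probe the same standard error, 0.27, and the block with quantile normalization did not. Why the fits differed in this was not tested. Leaving out each array in turn was run without the block, where both counts were 0 throughout, and the block was not refitted with an array left out. The *Anxa13* difference ranged from -3.05 without the *Id2*+/+ array numbered 1 to -1.48 without the one numbered 3, and from -2.17 to -1.83 under the other alternatives. *Anxa13* minus the other annexins ranged from -2.91 to -1.27 (without the *Id2*-/- array numbered 1) when an array was left out, and from -2.05 to -1.87 otherwise. The median difference of the other annexins ranged from -0.44 without the *Id2*-/- array numbered 1 to 0.076 without the one numbered 2. The signs of *Anxa3*, *Anxa5*, *Anxa6* and *Anxa7* changed under 1, 3, 1 and 2 of 17 alternatives each, and those of *Anxa1*, *Anxa2* and *Anxa4* under 0.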
